A study of Mus musculus with 2 samples.

Results

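Macrophage markers are the subject here, a set of 10 genes of the mouse that are used to recognise macrophages in general or the resident macrophages of tissues: Aif1, Lyz2, Cd68, Adgre1, Csf1r, Mrc1, Cd163, Mpeg1, Tyrobp and Fcer1g. They were picked by gene symbol from the 20634 genes listed in the deposited tables, and each of the 10 symbols matched exactly 1 gene. Their levels were compared in the whole uterus of pregnant mice between 1 library of genotype Mettl3 ed/ed and 1 library of genotype Mettl3 f/f. Both groups were females aged 6 to 8 weeks, mated with fertile males and killed on gestational day 4, with the day of the vaginal plug counted as day 1. Mettl3 encodes the catalytic subunit of the complex that writes N6-methyladenosine on RNA. The labels do not explain the letters of the genotypes, name no Cre driver and do not say whether a library came from 1 animal or from a pool. With a single library per genotype, no spread between animals could be estimated, so every difference given below is a difference between these libraries without a test.

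Macrophages are phagocytes that settle in most tissues and depend on signals through the receptor of colony-stimulating factor 1. In the uterus they lie mainly in the stroma and the muscle layer, and their number and position vary with ovarian hormones around mating and implantation. They engulf dying cells and microbes, digest them in lysosomes, and read their surroundings through surface receptors, many of which signal through small adaptors that carry an immunoreceptor tyrosine-based activation motif (ITAM). None of the 10 markers is specific to macrophages in every setting. Lyz2 is also made by neutrophils and some epithelia, Tyrobp and Fcer1g by natural killer cells and other leukocytes, and Mrc1 by some endothelial cells.

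Transcription of many macrophage genes depends on PU.1, the product of Spi1, a factor of the ETS family that binds purine-rich sequence around a GGAA core. The RefSeq promoter table (GRCm38.p6) held 7 of the 10 markers. The 250 bases before the transcription start were searched on both strands for 2 six-letter forms of such sequence, GAGGAA and AGGAAG, which can overlap each other, and for GAAANNGAAA, the repeat found in interferon-responsive elements. At least 1 of both purine-rich forms was present in 5 of the 7 promoters, against 39.2% of all 32851 promoter windows in the table. The interferon-type repeat was present in 1 of the 7, that of Aif1, against 2.98% of all windows. Shown first are the markers Lyz2 and Aif1, which were more than 2-fold higher in the ed/ed library, and then Mrc1, which had the most purine-rich matches and whose level was nearly equal. Capitals mark the matched bases on either strand, and each sequence is written 5′ to 3′ on the strand of its gene. They lie at chr10:117282273-117282522 (minus strand) for Lyz2, chr17:35176053-35176302 (minus strand) for Aif1 and chr2:14229164-14229413 (plus strand) for Mrc1.
Lyz2: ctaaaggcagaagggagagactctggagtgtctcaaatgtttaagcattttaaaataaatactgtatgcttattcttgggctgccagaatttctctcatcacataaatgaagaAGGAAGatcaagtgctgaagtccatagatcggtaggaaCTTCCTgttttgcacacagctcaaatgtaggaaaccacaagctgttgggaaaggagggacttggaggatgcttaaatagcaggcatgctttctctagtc
Aif1: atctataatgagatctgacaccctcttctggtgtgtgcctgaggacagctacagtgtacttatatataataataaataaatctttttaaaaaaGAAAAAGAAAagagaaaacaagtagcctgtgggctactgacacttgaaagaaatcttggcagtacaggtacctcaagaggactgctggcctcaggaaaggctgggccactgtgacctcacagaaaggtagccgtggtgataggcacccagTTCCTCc
Mrc1: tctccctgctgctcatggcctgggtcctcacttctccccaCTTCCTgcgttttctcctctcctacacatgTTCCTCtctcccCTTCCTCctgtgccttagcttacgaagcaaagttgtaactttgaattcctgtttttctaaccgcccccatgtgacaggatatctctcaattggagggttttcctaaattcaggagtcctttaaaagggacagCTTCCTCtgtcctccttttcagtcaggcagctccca

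In Lyz2 the matches to AGGAAG began 137 bases before the start on the gene's strand and 99 bases before it on the opposite strand. In Aif1 the interferon-type match began 157 bases before the start, within a stretch rich in A, and the purine-rich match lay 7 bases before it on the opposite strand. Mrc1 had 3 matches to each purine-rich form, all on the opposite strand, and 2 pairs of them overlapped. Cd68 and Fcer1g had 1 match each, while Mpeg1 and Cd163 had 0. A match of letters is no binding site. The 5 markers with a purine-rich match had log2 ratios between the libraries from -0.01 (Mrc1) to 1.495 (Aif1). The promoters were also poor in CpG: the count of CpG dinucleotides over that expected from base composition was below the median of all windows (0.373) in all 7, at 0.0953 in Lyz2, 0.0845 in Aif1 and 0.220 in Mrc1.

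The libraries were of similar depth, with about 17300000 fragments for ed/ed and 18300000 for f/f, estimated from the steps between low values. Mettl3 itself was at 10.2 FPKM (fragments counted per unit of transcript length and of sequencing depth) in the library labelled ed/ed and 10.6 FPKM in the library labelled f/f, so the level of the targeted transcript did not tell the libraries apart and the directions rest on their labels. Markers of the main compartments of the uterus were present in both libraries: all 6 epithelial, all 8 stromal and all 6 smooth muscle genes listed, and 8 of 9 endothelial genes, were at 1 FPKM or more in at least 1 library. Differences are given as the log2 ratio of FPKM + 1, with ed/ed on top and f/f below, a scale that understates the difference of low genes, and a gene is called higher or lower at 2-fold on that scale. Over the 12165 genes that reached 1 FPKM in at least 1 library, called the genes compared, the median log2 ratio was -0.26 (SD 0.58 across genes). Intervals of 95% stand for counting error alone, from fragments estimated per gene.

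Aif1, Tyrobp and Lyz2 were more than 2-fold higher in the ed/ed uterus library, while the surface receptors Adgre1, Csf1r and Mrc1 and the pore-forming protein gene Mpeg1 were within 2-fold. Of the 10 markers, 8 reached 1 FPKM in either library. Of these, 3 were higher in ed/ed by 2-fold or more and 0 were lower by that much. Over all 12165 genes, 2.68% were higher and 6.22% lower by the same rule. The median log2 ratio of the 8 was 0.35, against -0.26 for all genes, and 7 of the 8 lay above the median of all genes. The sum of all 10 markers was 325 FPKM in ed/ed and 176 FPKM in f/f, of which Lyz2 alone made 58.0% in ed/ed and 49.3% in f/f. Without Lyz2 the sums were 137 FPKM in ed/ed and 89.1 FPKM in f/f. In RNA of a whole organ, a difference in the number of macrophages and a difference in RNA per macrophage cannot be told apart.

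**Figure D1:**
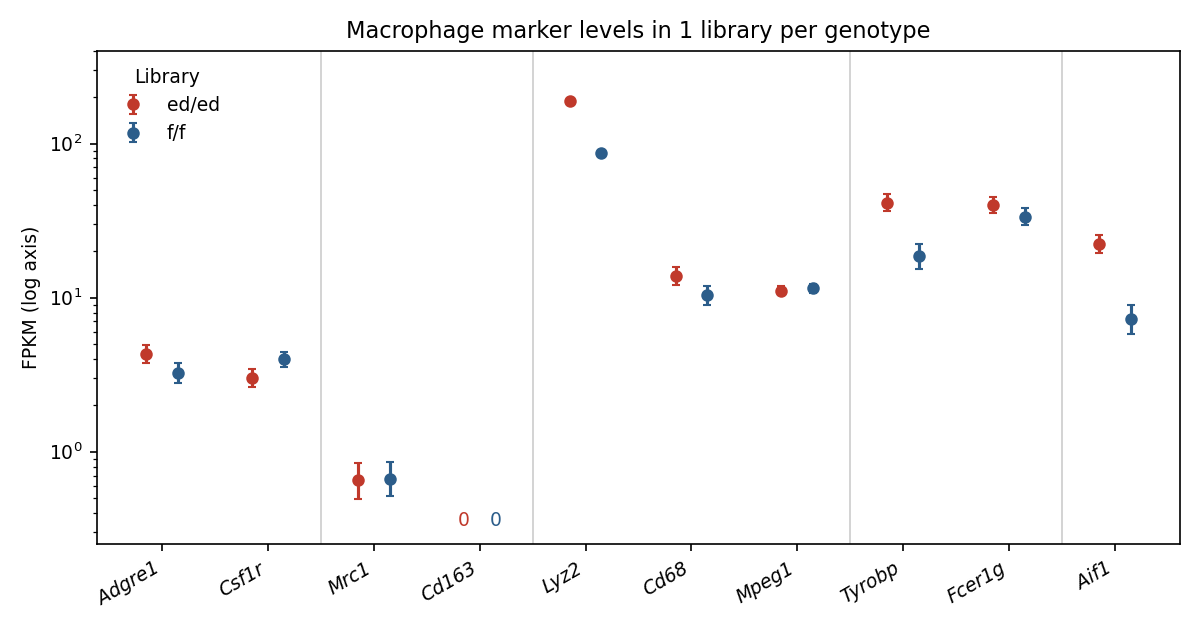
FPKM of each macrophage marker (log axis) in the ed/ed library (red, left of each pair) and the f/f library (blue, right), with bars for the 95% counting interval and grey lines between functional groups. Aif1, Tyrobp and Lyz2 stand clearly apart between the libraries, Mrc1 and Mpeg1 do not, and Cd163 is written as 0 because it was listed at 0 in both.

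Adgre1 encodes the adhesion receptor known as F4/80, the classical surface antigen of mouse macrophages. It was at 4.31 FPKM in ed/ed and 3.25 FPKM in f/f, a log2 ratio of 0.32. Its FPKM ratio was 1.32 (counting interval 1.08 to 1.62). Csf1r, which encodes the receptor that macrophages need for survival, was at 3.02 FPKM in ed/ed and 3.97 FPKM in f/f, and was the only marker among the 8 to lie below the median of all genes, at -0.31. Its FPKM ratio was 0.760 (counting interval 0.640 to 0.903). The sign of the Csf1r log2 ratio turned positive when ed/ed was scaled by reference genes (0.04) and when the trend with transcript length was removed (0.03). The span of Csf1r overlaps that of Hmgxb3 on the opposite strand, which was at 3.70 FPKM in ed/ed and 4.45 FPKM in f/f. Reads from any stretch that both transcripts share cannot be separated without strand, which the labels do not give. Whether their exons overlap was not examined. Both of these surface receptors are used to mark macrophages, and on the deposited scale their counting intervals lay on opposite sides of equal levels. The Adgre1 level was 1.43 times that of Csf1r in ed/ed and 0.819 times in f/f.

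The scavenger receptors that mark many resident macrophages were scarce. Mrc1, the mannose receptor CD206 that takes up glycoproteins, was at 0.657 FPKM in ed/ed and 0.669 FPKM in f/f, below the level at which genes were compared. Behind these values stood an estimated 58 fragments in ed/ed and 63 in f/f, with an FPKM ratio of 0.983 (counting interval 0.667 to 1.41). Cd163, the receptor for haemoglobin bound to haptoglobin, was listed at 0 in both libraries and has no ratio. With the estimated depth, a count of 0 allows up to 0.0412 FPKM of Cd163 in ed/ed and 0.0391 FPKM in f/f, but a value listed at 0 may also be an estimate that failed.

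Among markers of the lysosome and of killing, Lyz2 differed most. Lyz2 encodes lysozyme, which cleaves bacterial cell walls, and with 188 FPKM in ed/ed and 86.6 FPKM in f/f it was the most abundant marker in both libraries. Its log2 ratio was 1.11, and its FPKM ratio 2.18 (counting interval 2.05 to 2.31). The neighbouring paralogue Lyz1 lies 5475 bases away and shares sequence with Lyz2, so that reads may be split between them. Lyz1 was at 2.31 FPKM in ed/ed and 4.03 FPKM in f/f, the opposite direction and a small part of the Lyz2 level. Cd68, a glycoprotein of the lysosomal and endosomal membrane, was at 13.8 FPKM in ed/ed and 10.3 FPKM in f/f (log2 ratio 0.39, FPKM ratio 1.34, counting interval 1.10 to 1.63). Mpeg1 encodes perforin-2, which forms pores in engulfed bacteria. Its level was 11.1 FPKM in ed/ed and 11.5 FPKM in f/f, and the counting interval of its ratio (0.967), from 0.876 to 1.07, includes equal levels. The log2 ratio of Mpeg1 was -0.04 as deposited and was positive under each of the 4 other scalings. The Lyz2 level was thus 13.6 times that of Cd68 in ed/ed and 8.37 times in f/f.

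The ITAM adaptors differed from each other. Tyrobp encodes DAP12, the adaptor of Trem2 and of several other activating receptors, and was at 41.3 FPKM in ed/ed and 18.5 FPKM in f/f. Its log2 ratio was 1.12 and its FPKM ratio 2.23 (counting interval 1.78 to 2.79). Fcer1g encodes the common gamma chain of Fc receptors, and was at 39.97 FPKM in ed/ed and 33.6 FPKM in f/f, a log2 ratio of 0.24. Its FPKM ratio was 1.19, and the counting interval from 1.004 to 1.41 does not reach that of Tyrobp. The adaptors were at similar levels in ed/ed, where Tyrobp was 1.03 times Fcer1g, while in f/f it was 0.552 times Fcer1g. Tyrobp (chromosome 7, 30413760 to 30417585, GRCm38) ends 126 bases from the end of Hcst, which lies on the opposite strand and encodes DAP10, the adaptor of the activating receptor NKG2D. Hcst was at 7.57 FPKM in ed/ed and 2.47 FPKM in f/f, also more than 2-fold higher, so the neighbours shared their direction.

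Aif1, which encodes the calcium-binding, actin-bundling protein IBA1 of macrophages and microglia, had the highest ratio of the markers. It was at 22.3 FPKM in ed/ed and 7.27 FPKM in f/f, a log2 ratio of 1.495 that exceeded that of 99.1% of the genes compared. The FPKM ratio was 3.07 (counting interval 2.39 to 3.99), from an estimated 242 fragments in ed/ed and 83 in f/f. The gene lies at chromosome 17, 35170991 to 35176068 (GRCm38), and no other annotated gene overlaps it. The Aif1 level was 5.18 times that of Adgre1 in ed/ed and 2.24 times in f/f, so these pan-macrophage genes did not keep a common ratio to each other across the libraries.

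The marker with the next highest log2 ratio after the 3 called genes was Cd68 at 0.39, which leaves a wide interval without a marker between the called genes and the rest. The called genes have short transcripts, at 597 nt for Tyrobp, 875 nt for Aif1 and 1316 nt for Lyz2 (longest coding transcript). Fcer1g at 683 nt and Cd68 at 1230 nt are as short and were within 2-fold, whereas Adgre1, Mpeg1, Csf1r and Mrc1 have transcripts of 3238 to 5374 nt. Across the 9 markers with a value in both libraries the ratio declined with length (Spearman rho -0.73), with a weaker correlation across all 12158 genes with a length (rho -0.22). These are correlations across genes of the same pair of libraries. Among the 697 genes compared that are shorter than 1000 nt the median log2 ratio was 0.02 and 9.76% passed 2-fold higher in ed/ed, and among the 2448 genes of 1000 to 2000 nt 4.45% were. In the 4111 genes of 4000 nt or more 0.851% were. With the length trend removed, the log2 ratios were 1.52 for Aif1, 1.21 for Lyz2 and 1.09 for Tyrobp, so that the same 3 markers were at least 2-fold higher, against 4.33% of all genes, and again 0 were lower, against 2.85%. On that scale the ratios of Adgre1 (0.57), Cd68 (0.47), Mpeg1 (0.27), Fcer1g (0.23) and Csf1r (0.03) were within 2-fold.

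**Figure D2:**
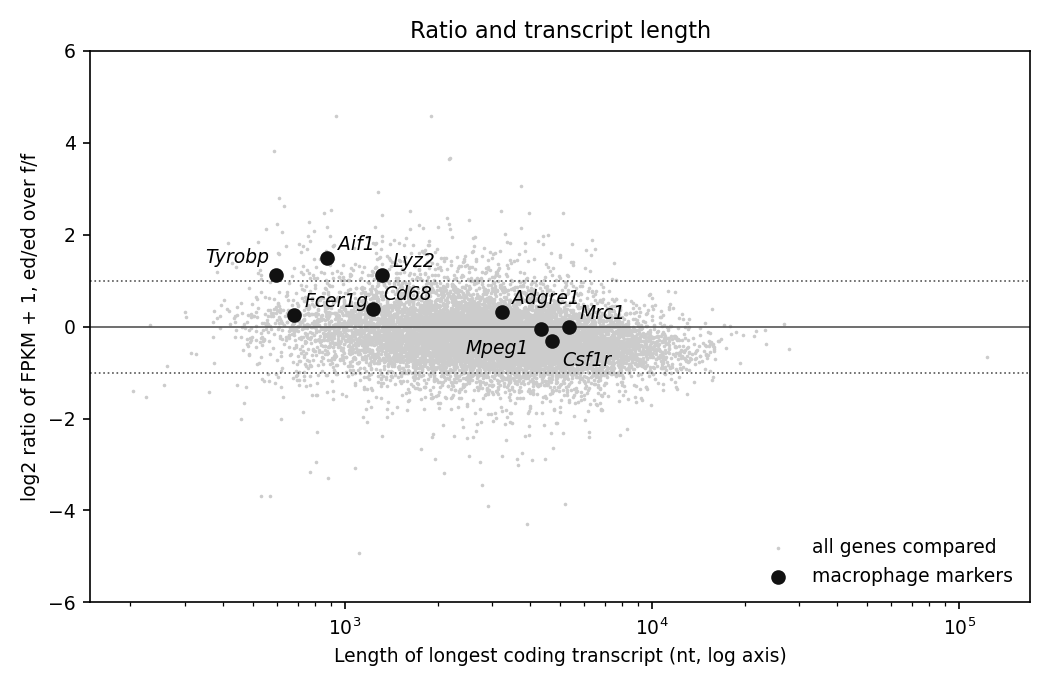
Log2 ratio of FPKM + 1, ed/ed over f/f, against the length of the longest coding transcript (log axis) for all genes compared (grey) and the 9 macrophage markers with a value (black), with dotted lines at 2-fold. Aif1, Tyrobp and Lyz2 lie above the upper line at short lengths, Fcer1g and Cd68 lie below it at similar lengths, and the 4 markers with long transcripts lie between -0.31 and 0.32.

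Other genes of leukocytes and macrophages were mostly above the median of all genes, but few passed 2-fold. All 8 pan-leukocyte genes had a log2 ratio above 0, with a median of 0.52. Ptprc, the leukocyte antigen CD45, was at 5.88 FPKM in ed/ed and 3.65 FPKM in f/f, and Laptm5, a lysosomal membrane protein of blood cells, was the only one of them at least 2-fold higher, at 63.0 FPKM in ed/ed and 15.7 FPKM in f/f. Of 22 further macrophage genes, 14 reached 1 FPKM, 13 of these had ratios above the all-gene median, and 0 passed 2-fold in either direction, with a median of 0.47. The closest were Gpnmb, a glycoprotein of lipid-laden macrophages, at 3.41 FPKM in ed/ed and 1.26 FPKM in f/f, and the lysosomal protease gene Ctss at 69.8 FPKM in ed/ed and 37.9 FPKM in f/f. C1qa, a chain of the first complement component, was at 52.8 FPKM in ed/ed and 29.7 FPKM in f/f. Under the other processing settings between 0 and 4 of these further genes passed 2-fold higher. Some genes of resident macrophages in this list were scarce, as Mrc1 and Cd163 were, and others were not. Lyve1 was at 0.245 FPKM in ed/ed and 0.779 FPKM in f/f, Folr2 at 0.491 FPKM in ed/ed and 0.655 FPKM in f/f, and Timd4, Vsig4 and Marco were listed at 0 in both. By contrast C1qc was at 35.0 FPKM in ed/ed and 25.9 FPKM in f/f, Ms4a7 at 7.33 FPKM in ed/ed and 6.39 FPKM in f/f, and the chemokine receptor gene Cx3cr1 at 3.90 FPKM in ed/ed and 2.86 FPKM in f/f. These 8 genes were picked from the list after their values were seen. Of the 14 further macrophage genes at 1 FPKM or more, 12 had log2 ratios above 0 on the deposited scale. The 2 below 0 were Stab1, at 1.97 FPKM in ed/ed and 2.96 FPKM in f/f, and Clec10a, at 1.31 FPKM in ed/ed and 1.61 FPKM in f/f.

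The ligands of the Csf1 receptor were low. Csf1 was at 2.21 FPKM in ed/ed and 2.27 FPKM in f/f, and Il34, the second ligand, at 0.465 FPKM in ed/ed and 1.12 FPKM in f/f. Of the 6 genes of that list at 1 FPKM or more, 0 differed 2-fold and the median was -0.01, a sign that depended on the scale. Among 9 myeloid transcription factors the median was 0.12 and only Spi1 passed 2-fold, at 8.30 FPKM in ed/ed and 2.81 FPKM in f/f, while Irf5, a factor of inflammatory macrophages, was at 3.61 FPKM in ed/ed and 1.93 FPKM in f/f. Spi1 fell short of 2-fold (log2 ratio 0.77) with a pseudocount of 5 FPKM.

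Most receptors that signal through Tyrobp or Fcer1g were at low levels. Of 12 receptors matched, 5 reached 1 FPKM and 0 of them passed 2-fold, with a median of 0.83. Trem2, a lipid-sensing partner of Tyrobp, was at 10.3 FPKM in ed/ed and 5.32 FPKM in f/f. Fcgr3, an activating Fc receptor that needs Fcer1g, was at 8.43 FPKM in ed/ed and 3.76 FPKM in f/f, and Klrk1, the receptor NKG2D, at 3.53 FPKM in ed/ed and 1.42 FPKM in f/f. Fcgr1, the high-affinity receptor for IgG, went the other way, at 0.198 FPKM in ed/ed and 1.29 FPKM in f/f. Under other settings up to 4 of these receptors passed 2-fold higher and up to 1 passed 2-fold lower. The kinase genes behind them were at unlike levels, with Lyn at 14.3 FPKM in ed/ed and 14.2 FPKM in f/f and Syk at 4.72 FPKM in ed/ed and 3.11 FPKM in f/f. A further list held genes of ITAM signal relay and its inhibitors, together with Hcst, whose adaptor is not counted here as an ITAM protein. Among its 11 genes at 1 FPKM or more, 3 were at least 2-fold higher and 0 lower, with a median of 0.40. They were Hcst, the exchange factor gene Vav1 at 2.43 FPKM in ed/ed and 0.468 FPKM in f/f, and the adaptor gene Card9 at 1.16 FPKM in ed/ed and 0.0673 FPKM in f/f, the f/f value from an estimated 2 fragments. The Hcst values came from an estimated 25 fragments in ed/ed and 9 in f/f. Hcst, Vav1 and Card9 dropped below 2-fold with a pseudocount of 5 FPKM.

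Phagocytic integrins and scavenger receptors had ratios on both sides of 0. Of 10 such genes at 1 FPKM or more, 0 were 2-fold higher and 2 were lower. The median was -0.15, with 4 genes above 0 and 6 above the all-gene median of -0.26, and it was positive with median ratio (0.05), upper quartile (0.01) and reference gene (0.16) scaling and with the length trend removed (0.07). The lower genes were Colec12, a collectin of endothelium and stroma, at 9.22 FPKM in ed/ed and 27.5 FPKM in f/f, and Scarb1, the receptor for high-density lipoprotein, at 4.998 FPKM in ed/ed and 12.7 FPKM in f/f. Mertk, a receptor for dying cells, was at 1.21 FPKM in ed/ed and 2.68 FPKM in f/f. Under other settings 1 to 3 genes of the list were lower. Itgax, the integrin CD11c, was at 1.52 FPKM in ed/ed and 0.866 FPKM in f/f.

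**Figure D3:**
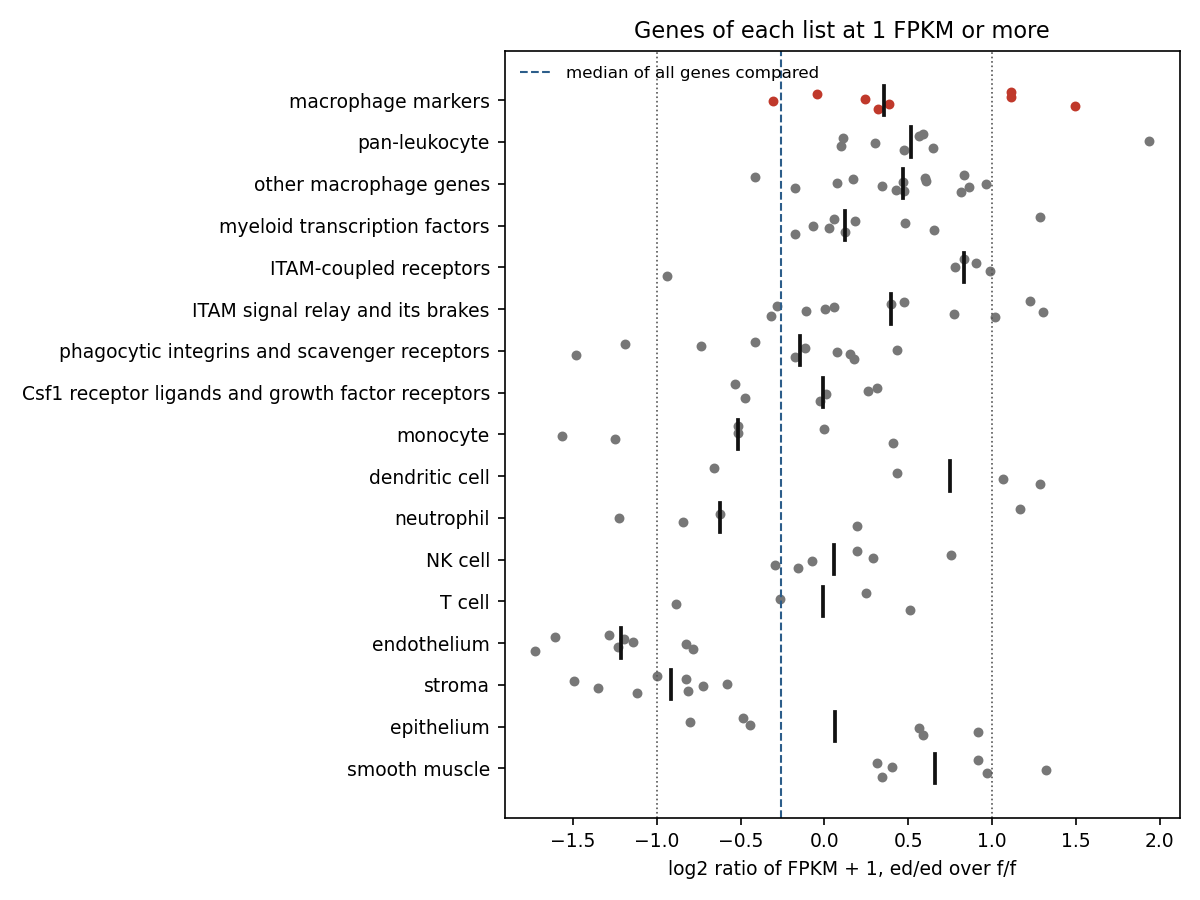
Log2 ratio of FPKM + 1, ed/ed over f/f, of each gene at 1 FPKM or more (points) by gene list, with the list median (black bar), the median of all genes compared (dashed) and 2-fold (dotted). The macrophage markers (red) spread from -0.31 to 1.495 around a median of 0.35, and the endothelium and stroma lists lie to the left of the median of all genes.

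Markers of other cells that share these genes moved in several directions, and their part in the differences of the macrophage markers was not tested. Of 10 neutrophil genes, which bear on Lyz2, 5 reached 1 FPKM in either library, 1 of these was higher and 1 lower by the 2-fold rule, and the list summed to 3.75 FPKM in ed/ed and 5.99 FPKM in f/f. The granule genes Elane, Camp and Ngp were listed at 0 in both. The higher gene was S100a9, at 1.25 FPKM in ed/ed (an estimated 6 fragments) and listed at 0 in f/f. The lower gene was Retnlg, at 0.172 FPKM in ed/ed and 1.74 FPKM in f/f (an estimated 1 and 11 fragments). Ly6g, at 0.515 FPKM in ed/ed and 1.72 FPKM in f/f, did not pass the rule. Of 8 natural killer cell genes, which bear on Tyrobp, Fcer1g and Hcst, 6 reached 1 FPKM, 0 passed 2-fold, and the sum was 27.4 FPKM in ed/ed and 26.1 FPKM in f/f. Ncr1, the defining receptor NKp46, was at 2.37 FPKM in ed/ed and 0.995 FPKM in f/f, whereas Gzma was at 3.60 FPKM in ed/ed and 4.64 FPKM in f/f. Of 8 monocyte genes, 6 reached 1 FPKM, 2 were lower and 0 higher. Cd14, the co-receptor for lipopolysaccharide, was at 47.2 FPKM in ed/ed and 114 FPKM in f/f, and Fn1 at 19.4 FPKM in ed/ed and 59.4 FPKM in f/f, while Ly6c2, the surface antigen of classical monocytes, was at 2.45 FPKM in ed/ed and 3.93 FPKM in f/f. Ccr2, the chemokine receptor of these monocytes, lay the other way, at 6.59 FPKM in ed/ed and 4.71 FPKM in f/f, and Plac8, the most abundant gene of the list, was at 277 FPKM in both libraries. Cd14, Fn1 and Plac8 were far above the leukocyte gene Ptprc (5.88 FPKM in ed/ed and 3.65 FPKM in f/f). Which cells their RNA came from was not tested. Of 9 dendritic cell genes, 4 reached 1 FPKM. Batf3 was at 3.80 FPKM in ed/ed and 0.967 FPKM in f/f, and Cd209a at 2.84 FPKM in ed/ed and 0.838 FPKM in f/f, both at least 2-fold higher except with a pseudocount of 5 FPKM, while Zbtb46 was at 2.13 FPKM in ed/ed and 3.94 FPKM in f/f. Flt3 stayed under 1 FPKM and Ccr7 was listed at 0 in both.

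Marker genes of some compartments of the uterus also differed. Of 8 endothelial genes compared, 6 were at least 2-fold lower in ed/ed and their list summed to 71.4 FPKM in ed/ed and 178 FPKM in f/f, with Cdh5 at 12.0 FPKM in ed/ed and 42.0 FPKM in f/f. Of 8 stromal genes, 3 were lower, and the sum was 485 FPKM in ed/ed and 988 FPKM in f/f. Over all genes compared, 6.22% were lower and 2.68% higher by the same rule. With other settings the lower genes numbered 2 to 7 for endothelium and 1 to 4 for stroma. When the trend with transcript length was removed, 2 endothelial genes and 1 stromal gene were lower, against 2.85% of all genes. Smooth muscle genes summed to 792 FPKM in ed/ed and 470 FPKM in f/f, with 1 of 6 higher, Cnn1, and epithelial genes to 1642 FPKM in ed/ed and 1676 FPKM in f/f with 0 of 6 past 2-fold. Under each of the 4 other scalings 3 smooth muscle genes and 1 to 3 epithelial genes were higher.

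**Figure D4:**
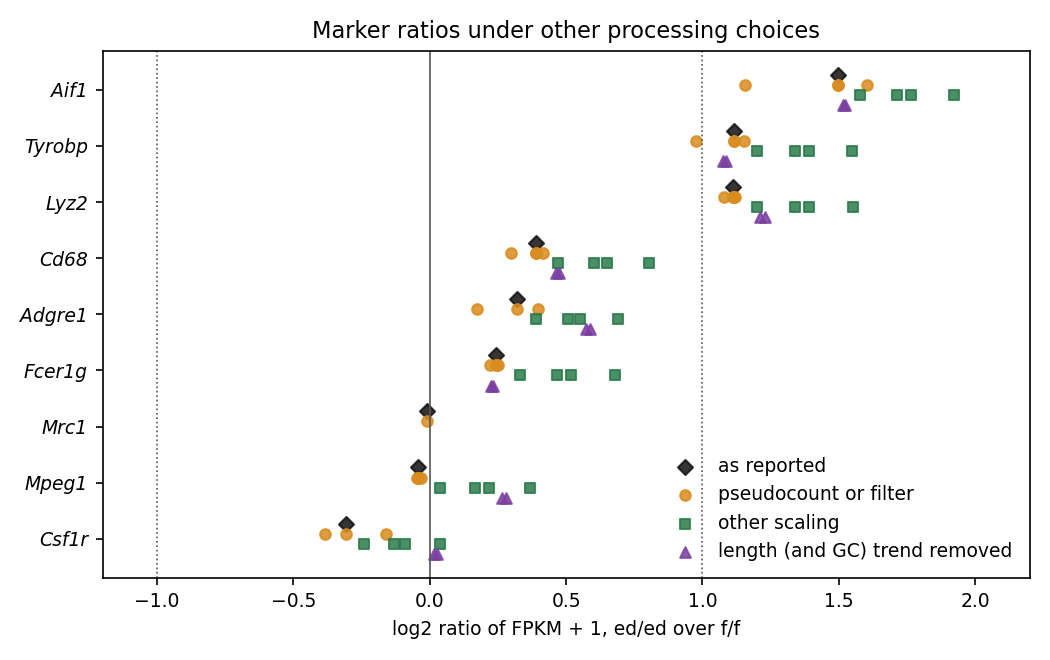
Log2 ratio of FPKM + 1, ed/ed over f/f, of the 9 macrophage markers with a value, as reported (black diamonds) and under other pseudocounts or filters (orange), other scalings (green) and removal of the length or length and GC trends (purple), with dotted lines at 2-fold. Aif1 and Lyz2 lie beyond 2-fold at every setting, Tyrobp at all but a pseudocount of 5 FPKM (0.98), and Csf1r and Mpeg1 lie on both sides of 0.

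The choice of scale moved all ratios together, by a log2 shift of 0.09 (equal sums), 0.23 (upper quartile), 0.28 (median ratio) and 0.44 (reference genes) towards ed/ed. Of the genes past 2-fold, 30.1% were higher in ed/ed as deposited, and 38.9%, 53.7%, 59.4% and 74.0% under these scalings. Aif1 kept a log2 ratio between 1.15 and 1.92 over the 10 settings that changed its value or the filter, Lyz2 between 1.08 and 1.55, and Tyrobp between 0.98 and 1.55. The same 3 markers were the only ones past 2-fold under all 4 scalings. Because every scaling raised the ed/ed values, markers already 2-fold higher could not drop out, and no scaling in the other direction was tried. These 3 markers were also the only ones past 1.5-fold on the deposited scale. By that rule 7.04% of all genes were higher and 23.4% lower.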

How the data were processed

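Total RNA of whole uterus was sequenced from TruSeq RNA libraries, 1 per genotype, per the labels' protocols. The submitters' processing notes name HISAT2 2.2.1 and Cufflinks 2.2.1 and the builds mm9 and mm10, without saying which build was used. The authors deposited 1 value per gene, taken as FPKM because Cufflinks writes that unit and the values are decimals with exact zeros and unequal sums (the header names no unit). Annotation, filters and strand setting were not given in the sources used here.

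Values were compared as log2 of (FPKM + 1), ed/ed over f/f, among genes that reached 1 FPKM in at least 1 library, with a rule of 2-fold in place of a test. Locations and transcript lengths came from GENCODE M21 (GRCm38), matched for 20557 genes, and promoters from RefSeq. Fragments per gene were estimated from the spacing of low FPKM in single-transcript genes longer than 1000 nt. The effective length was set 250 nt below that of the longest coding transcript. This is rough for short transcripts and for genes with several transcripts. Intervals of 95% (exact Poisson, or exact binomial for ratios) and floors of 3 counts cover counting error only. Length and GC trends were removed by lowess (fraction 0.3, statsmodels 0.14.6). The calculations were tested on simulated data.

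The markers and the 22 other lists (209 entries, 208 matched) were chosen with earlier results of these data known. Named genes were all markers, Mettl3, Ptprc, Spi1, Csf1, Il34 and up to 4 genes per list with the largest absolute ratio. Other genes are named as neighbours, paralogue, defining markers or the genes of a list below 0, chosen after their values were seen. The reference list (12 genes) served only for scaling, with a median log2 ratio of -0.36.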

Additional observations from a re-analysis of the deposited data

How the results depend on the processing

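Across 11 other settings, the count of markers past the fold rule and higher was 3 in 10 of them. With a pseudocount of 5 FPKM it was 2, and the count lower was 0 in all. The rule was 2-fold, except in the setting that replaced it by 1.5-fold, where the 3 markers are those past 1.5-fold. The median log2 ratio of markers, 0.35 as reported, moved beyond the typical counting interval with a filter of 5 FPKM (0.75, since only 6 markers remain) and with reference gene scaling (0.75, since all values shift). The other settings left it between 0.26 and 0.60. Of 79 values of single markers under other settings, 59 stayed within their counting interval, 20 moved beyond it and 0 of the called markers changed sign. Settings that change only the filter leave the ratio of a marker as it was, so their values are among the 59 by construction. Removing the length trend also removes the overall offset of -0.26 between the libraries. No paired analysis was possible because each genotype has 1 library, and for the same reason no replicate could be left out. Depth limits Mrc1 and Cd163. The estimated fragments are uncertain for the short transcripts of Tyrobp and Fcer1g. They are also uncertain for markers with several annotated transcripts, such as Aif1 (7) and Csf1r (6).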

Other observations

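Most genes of macrophage activation stayed under 1 FPKM in both libraries. Of 9 inflammatory genes, 3 reached 1 FPKM and 0 differed 2-fold: Il1b was at 1.17 FPKM in ed/ed and 0.298 FPKM in f/f, Il6 at 1.28 FPKM in ed/ed and 0.983 FPKM in f/f, and Ptgs2 at 3.74 FPKM in ed/ed and 2.49 FPKM in f/f. Il12b was listed at 0 in both. Of 9 genes of alternative activation, 3 reached 1 FPKM and 1 passed the 2-fold rule. This was Retnla, a secreted protein of macrophages exposed to interleukin-4 that airway and gut epithelia can also make. It was at 3.67 FPKM in ed/ed (an estimated 22 fragments) and listed at 0 in f/f. Retnla fell below 2-fold (log2 ratio 0.79) with a pseudocount of 5 FPKM. Mgl2 was at 0.297 FPKM in ed/ed and 1.17 FPKM in f/f, Il4ra, the receptor for interleukin-4, at 7.82 FPKM in ed/ed and 5.32 FPKM in f/f, and Il10, Ccl17 and Ccl24 were listed at 0 in both.

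Among other leukocytes, B cell genes were nearly absent, with Ms4a1 and Cd79a listed at 0 in both libraries. Jchain, the joining chain of secreted antibodies, was higher by the 2-fold rule except with a pseudocount of 5 FPKM, at 14.4 FPKM in ed/ed and 5.50 FPKM in f/f, and Mzb1, another gene of plasma cells, was at 4.43 FPKM in ed/ed and 1.96 FPKM in f/f. Of 8 T cell genes, 4 reached 1 FPKM and 0 differed 2-fold, with Cd247 at 0.585 FPKM in ed/ed and 1.93 FPKM in f/f and Lck at 6.92 FPKM in ed/ed and 5.66 FPKM in f/f. Of the mast cell genes, Cpa3, Mcpt4, Ms4a2 and Fcer1a were listed at 0 in both, the protease genes Cma1 and Tpsb2 were at 0.702 FPKM and 0.431 FPKM in ed/ed and listed at 0 in f/f, and Kit, which stroma and other cells also express, was at 6.71 FPKM in ed/ed and 2.94 FPKM in f/f. Of 6 eosinophil genes only Ear2 reached 1 FPKM, at 1.30 FPKM in ed/ed and 1.68 FPKM in f/f, and Epx and Il5ra were listed at 0 in both.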
